A study of Homo sapiens with 28 samples.

Results

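Adding Palbociclib to Telaglenastat in HCT116 tumors is described here as a comparison of 4 Combination tumors with 4 Telaglenastat tumors, the 8 libraries of the series' 28 whose labels give these treatments, over every gene that passed a filter on low counts (14848 of 58278 genes counted). HCT116, a line long kept in culture from a human colorectal carcinoma, was grafted here with a Luciferase-GFP label under the skin of male NOD SCID mice aged 5 weeks. These animals lack functional T and B cells, and their own stroma, vessels and myeloid cells remain in the graft. Both groups received Telaglenastat (written Telaglenestat in the labels, 150 mg/kg/day), and the Combination mice also received Palbociclib (100 mg/kg/day), by mouth every day for 23 days, with 14 mice randomized to each treatment. Beside them stand 3 Control tumors of vehicle-treated mice, 5 Palbociclib tumors, and 12 cultures of HCT116 cells taken out of such tumors, 3 per treatment. Those cultures were grown without drug. The labels number the tumors but do not name their mice, so p-values measure the spread between these libraries. How the sequenced tumors were chosen from the 14 of a group is not given in the sources used here.

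Palbociclib inhibits CDK4 and CDK6, the kinases that with D-type cyclins phosphorylate the retinoblastoma protein RB1 and so release E2F transcription factors, which drive the genes of DNA synthesis. Genes of mitosis are switched on later in the cycle, largely by MuvB complexes with B-MYB and FOXM1 acting at promoter elements called CHR. Telaglenastat blocks the mitochondrial step that turns glutamine into glutamate, a source of carbon for the TCA cycle and of nitrogen for amino acids and nucleotides.

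The 8 libraries held between 6463239 and 7218778 reads on genes, and a first principal component with 27.05% of the variance put the 4 tumors of each treatment on its opposite ends. Levels are given as CPM, counts scaled to a fixed total of reads, on library sizes scaled by TMM, log2 fold changes as Combination minus Telaglenastat unless said otherwise, and p-values as adjusted over all genes tested by the method of Benjamini and Hochberg. Of the 14848 genes, 1468 (9.89%) were lower and 1326 (8.93%) higher in Combination tumors by edgeR's quasi-likelihood test at an adjusted p under 0.05, 18.8% in all, and 141 of the lower and 212 of the higher genes differed by at least 2-fold. The median log2 fold change over all genes tested was 0.02. The lower genes had a median GC content of 41.6% and the higher genes one of 51.6%, against 48.0% for all genes tested. The trend of log2 expression on GC content was -0.34 ± 0.036 (SD, n = 4) per SD of GC content in Telaglenastat and -0.21 ± 0.055 (n = 4) in Combination tumors. In Control tumors it was 0.25 ± 0.0064 (n = 3) and in Palbociclib tumors 0.28 ± 0.11 (n = 5). Its part in levels set across all 4 groups was not tested. With the trend on GC content and gene length fitted in each library and removed, 1078 genes were lower and 1268 higher, and 1822 of the 2794 calls were shared. Among 166 genes chosen by rule or named here, 23 share exons with another gene on the same strand and 65 overlap a gene on the other strand. How reads were counted by strand is not given in the sources used here. RRM2, BUB1B, PYCR1, SLC2A1, MT-CO3, COX7C, FADS1, TIGAR, HLA-B, CLDN7, NPC2, AHCY and COL3A1 are in the first set and are uncertain.

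The CDK4/6-RB axis moved in both directions when Palbociclib was added. The D-type cyclin CCND1 (ENSG00000110092.3, chr11:69641087-69654474 on GRCh38), the partner of CDK4 and CDK6, was at 606, 469, 504 and 520 CPM in the Telaglenastat tumors and 1120, 1210, 1080 and 1060 CPM in the Combination tumors. All 4 Combination tumors lay above all 4 Telaglenastat tumors (log2 fold change 1.09 ± 0.075 SE, adjusted p = 1.88e-08). CDK6 (chr7:92604921-92836594), a target of the drug, was at 21, 27, 21.1 and 23.7 CPM in the Telaglenastat tumors and 42.7, 52.4, 46.7 and 53.9 CPM in the Combination tumors, and the groups again did not overlap (log2 fold change 1.07 ± 0.21 SE, adjusted p = 0.00102). CDK4, the other target, was at 121, 113, 97.9 and 117 CPM in the Telaglenastat tumors and 103, 126, 129 and 113 CPM in the Combination tumors. Its groups overlapped and it did not pass the test (log2 0.07, adjusted p = 0.662; log2 -0.04 with GC content and length removed).

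Other members of the same axis fell. CCNE2, the E-type cyclin that activates CDK2, was at 33.1, 33.7, 29.8 and 30.7 CPM in the Telaglenastat tumors and 15.9, 7.46, 10.8 and 14.9 CPM in the Combination tumors, with no overlap (log2 fold change -1.38 ± 0.18 SE, adjusted p = 2.88e-05). The E2F family members E2F7 and E2F8, both repressors, fell by similar amounts. E2F7 had 43.2, 42.9, 42.7 and 33.3 CPM in Telaglenastat and 19.2, 19, 12.5 and 15.8 CPM in Combination tumors (log2 fold change -1.29, adjusted p = 1.96e-06). For E2F8 the values were 23.9, 15.7, 18.8 and 26.9 CPM and 9.85, 6.12, 6.96 and 9.67 CPM (log2 fold change -1.39, adjusted p = 3.36e-05). The lowest Telaglenastat tumor was above the highest Combination tumor for both. CDKN2C, an INK4 inhibitor of CDK4 and CDK6, went from 7.3, 5.71, 4.25 and 8.33 CPM to 1.27, 3.88, 1.56 and 1.04 CPM, a fall (log2 -1.71, adjusted p = 0.00262) with no overlap at a low level. RB1 itself fell less, from 147, 129, 141 and 135 CPM to 123, 107, 88.8 and 96 CPM (log2 -0.41, adjusted p = 0.00373). With GC content and length removed the fall of RB1 was smaller (log2 -0.25, adjusted p = 0.0453). With a replicate block as well its call was lost (adjusted p = 0.0568), in 1 of 17 alternatives.

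CCNE1, the other E-type cyclin, rose from 21, 21, 20.3 and 25 CPM to 36.8, 32.2, 28.5 and 30.3 CPM (log2 0.55, adjusted p = 0.00212), opposite to CCNE2. CDKN1B, the CDK inhibitor p27, fell from a range of 56.3 to 68.5 CPM to one of 41.8 to 50.2 CPM (log2 -0.39, adjusted p = 0.00713). E2F1 was at 4.46 to 7.52 CPM and 3.43 to 6.82 CPM (adjusted p = 0.427). CDKN1A, the CDK inhibitor p21, was at 76.2 to 93.6 CPM and 64.3 to 89 CPM (adjusted p = 0.555). Neither passed the test, although CDKN1A did with GC content and length removed (adjusted p = 0.0315, log2 fold change -0.28). Over the list, 11 of 29 tested members were lower (37.9%), 4 higher (13.8%) and 14 not called, with a median log2 fold change of -0.20. Among all genes 9.89% were lower and 8.93% higher. E2F8, CCNE1 and CDKN1B are named here because their values had been seen.

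**Figure D1:**
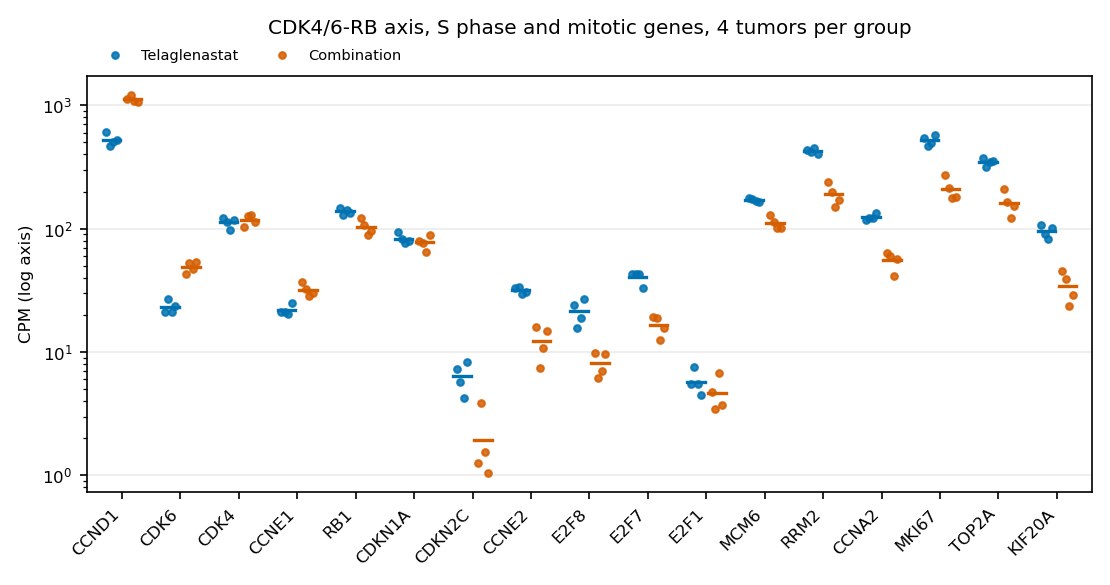
CPM on a log axis for 17 genes of the CDK4/6-RB axis, S phase and mitosis, with 1 point per tumor, a line at the group mean, Telaglenastat tumors in blue and Combination tumors in orange. CCND1, CDK6 and CCNE1 sit higher in Combination tumors, CDK4, CDKN1A and E2F1 overlap, and CCNE2, E2F7, E2F8 and the S phase and mitotic genes sit lower.

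S phase genes were lower almost throughout. Of 43 tested, 37 were lower (86.0%, against 9.89% of all genes) and 1 higher, with a median log2 fold change of -0.64. In 36 the groups did not overlap, as was so for 21.3% of all genes tested. The exception that rose was MRPL36 (log2 fold change 0.62), which encodes a mitochondrial ribosomal protein and was named after its value had been seen. MCM6, a subunit of the helicase that unwinds origins, was at 177, 174, 169 and 165 CPM in the Telaglenastat tumors and 128, 113, 102 and 102 CPM in the Combination tumors (log2 fold change -0.63 ± 0.076 SE, adjusted p = 1.01e-05). The lowest Telaglenastat tumor was well above the highest Combination tumor. RRM2, the regulated subunit of ribonucleotide reductase, which makes deoxynucleotides, had 435, 417, 449 and 402 CPM in Telaglenastat and 240, 200, 151 and 171 CPM in Combination tumors (log2 fold change -1.16 ± 0.12 SE, adjusted p = 1.86e-06), again without overlap. ATAD2, a chromatin-binding ATPase, and WDR76 and USP1, a deubiquitinase of the DNA damage response, had log2 fold changes of -1.11, -1.21 and -0.84 and fell.

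Replication and repair lists followed. In the list of origin licensing and replication fork genes, 32 of 50 were lower (64.0%) and 1 higher (2.0%), with a median of -0.43. Among all genes these shares were 9.89% and 8.93%. Lower members included WDHD1 (log2 -0.97, adjusted p = 1.86e-07), TOP2A, the topoisomerase of dividing cells (log2 -1.11, adjusted p = 1.86e-06), and CDC7, the kinase that fires origins (log2 -0.93, adjusted p = 3.74e-06). Of 31 homologous recombination and Fanconi genes, 18 were lower (58.1%) and 0 higher (median -0.41). BRIP1, a helicase partner of BRCA1, had 73, 74.5, 62.3 and 61.2 CPM in Telaglenastat and 36.7, 32.7, 31.8 and 31.8 CPM in Combination tumors, with no overlap (log2 fold change -1.03 ± 0.091 SE, adjusted p = 2.60e-07). FANCI, BARD1 and UBE2T were lower, with log2 fold changes of -0.68, -1.10 and -0.69. Deoxynucleotide supply was mixed: 7 of 16 were lower (43.8%) and 3 higher (18.8%), with a median of -0.31. RRM1, the large subunit of ribonucleotide reductase, and TYMS, the thymidylate synthase, fell, with log2 fold changes of -0.94 and -0.73. The 3 members that rose were the nucleoside diphosphate kinase NME2 (0.39), the nucleotide kinase CMPK1 (0.20) and the mitochondrial thymidine kinase TK2 (0.47), named after their values had been seen. NME2 belongs to the pair that NME1-NME2 is annotated across, so counting can assign reads to either, and its value is uncertain. Replication-dependent histones, whose messages mostly lack poly(A) tails and were read here after poly(A) selection, had 5 of 28 members tested and none called.

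G2/M and mitotic genes showed the lowest medians of all lists. Of 54 G2/M genes, 46 were lower (85.2%, against 9.89% of all genes) and 0 higher (median -0.87, 44 without overlap). Of 45 genes of MuvB, FOXM1 and mitotic control, 39 were lower (86.7%) and 0 higher (median -0.86), and the lists share members. MKI67 (chr10:128096659-128126385), the antigen Ki-67 that marks cycling cells, was at 542, 465, 494 and 573 CPM in the Telaglenastat tumors and 270, 215, 176 and 180 CPM in the Combination tumors (log2 fold change -1.30 ± 0.12 SE, adjusted p = 2.61e-07). Every Combination tumor held less than every Telaglenastat tumor, and Combination tumor 1 was the highest of its group. KIF20A, a kinesin of cytokinesis, was at 107, 90.8, 82 and 101 CPM in the Telaglenastat tumors and 45.1, 39.4, 23.4 and 28.9 CPM in the Combination tumors. It had no overlap and one of the larger falls (log2 fold change -1.48 ± 0.16 SE, adjusted p = 1.86e-06). HMGB2, a chromatin protein, LBR, the lamin B receptor, and SMC4, a condensin subunit, fell, with log2 fold changes of -1.35, -0.87 and -0.75, and so did CCNA2, cyclin A2, and NEK2, a mitotic kinase, with -1.17 and -1.15. With GC content and length removed, 36 S phase genes, 48 G2/M genes and 39 mitotic control genes were lower. In bulk tumors, fewer cells of a kind and less RNA per cell cannot be told apart.

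Promoters of 1 gene from each of the S phase, mitotic and epithelial defence lists are printed because the first pair fell and the third rose, and each was picked for holding the letters searched; most genes of the S phase and epithelial lists do not hold them. They are the 160 bases before the start site from RefSeq on GRCh38.p14, in the direction of the gene: MCM6 at chr2:135876444-135876603 on the minus strand, MKI67 at chr10:128126424-128126583 on the minus strand and LCN2, an iron-binding defence protein, at chr9:128149293-128149452 on the plus strand. Capitals mark the E2F letters TTTCGCGC or TTTGGCGC in MCM6, the CHR letters TTTGAA in MKI67 and the AP-1 letters TGANTCA in LCN2, each searched on both strands.
MCM6: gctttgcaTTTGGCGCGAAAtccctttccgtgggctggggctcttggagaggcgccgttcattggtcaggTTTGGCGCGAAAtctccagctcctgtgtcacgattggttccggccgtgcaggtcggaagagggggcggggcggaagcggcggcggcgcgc
MKI67: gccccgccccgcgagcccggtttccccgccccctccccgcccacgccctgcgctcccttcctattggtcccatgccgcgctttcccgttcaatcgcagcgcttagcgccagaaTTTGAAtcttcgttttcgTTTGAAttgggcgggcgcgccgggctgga
LCN2: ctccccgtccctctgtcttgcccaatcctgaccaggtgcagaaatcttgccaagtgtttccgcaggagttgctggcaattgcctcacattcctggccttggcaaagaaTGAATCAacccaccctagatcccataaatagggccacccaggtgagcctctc
In MCM6 the E2F letters began 152, 148, 90 and 86 bases before the start, in 2 overlapping pairs of opposite strands. In MKI67 the CHR letters began 47 and 29 bases before it, and in LCN2 the AP-1 letters 52 bases before it.

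Over the 10728 tested genes with a promoter in the table, windows from 250 bases before to 50 after the start held the E2F letters in 2.04%, the CHR letters in 9.47%, the CCAAT letters in 36.7% and the AP-1 letters in 4.61%. Among the genes lower in Combination tumors (1215 with a promoter) the shares were 5.6%, 16.9%, 42.1% and 3.13%, and among the higher genes (992 with a promoter) 1.31%, 6.55%, 35.0% and 5.24%. Of 33 S phase genes with a promoter, 9 held the E2F letters and 1 the CHR letters. Of 45 G2/M genes, 2 held the E2F letters, 31 the CHR letters and 31 the CCAAT letters. Of 16 epithelial secretory and defence genes with a promoter, 3 held the AP-1 letters, LCN2 among them, and 0 the E2F or CHR letters. These are matches of letters, not sites in use, and they were not tested.

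Genes that handle glutamine, on which Telaglenastat acts, moved in both directions. GLUL (chr1:182381704-182392206), glutamine synthetase, which makes glutamine from glutamate and ammonia, was at 196, 177, 154 and 174 CPM in the Telaglenastat tumors and 143, 137, 130 and 136 CPM in the Combination tumors, a fall without overlap (log2 fold change -0.36 ± 0.071 SE, adjusted p = 0.00122). Over the list of 21 tested genes, 5 were higher (23.8%, against 8.93% of all genes) and 2 lower (9.52%, against 9.89%). Their median was 0.01. With GC content and length removed, 4 of these 7 members no longer passed. Among them were GMPS of guanine nucleotide synthesis (adjusted p = 0.253, against 0.0196) and PYCR1 of proline synthesis (0.0853, against 0.021).

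Among amino acid transporters, 4 of 18 rose (22.2%) and 1 fell (5.56%), against 8.93% and 9.89% of all genes (median 0.14). SLC1A1, a glutamate carrier, rose from 44.4, 43.6, 43.4 and 26.8 CPM to 56.4, 62.6, 57.4 and 54 CPM (log2 0.54, adjusted p = 0.0084), with Telaglenastat tumor 4 below the others. SLC7A6 and SLC38A5, carriers of basic and neutral amino acids, rose by 0.51 and 0.60 on the log2 scale. Of 27 tested genes of the ATF4 stress response, induced when amino acids are short, 5 rose (18.5%) and 2 fell (7.41%, median 0.07). HSPA5, the endoplasmic reticulum chaperone, was among those that rose (log2 0.34, adjusted p = 0.0113). PHGDH of serine synthesis was among those that fell (log2 -0.73, adjusted p = 0.0238), a call lost in 3 of 17 alternatives. Cytosolic tRNA synthetases had 3 of 20 higher (15%) and none lower (median 0.07). These 3, NARS, WARS and SARS, lost their calls in 5, 8 and 9 of 17 alternatives. Serine and one-carbon enzymes had 5 of 17 lower (29.4%) and none higher (median -0.14), 4 of them also in the deoxynucleotide or ATF4 lists. The fifth, MTHFD1, was at 167 to 201 CPM in Telaglenastat and 129 to 158 CPM in Combination tumors (log2 -0.41, adjusted p = 0.00262).

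Messages encoded by the mitochondrial genome rose together. All 13 were higher, none with overlapping groups (median log2 fold change 0.88). MT-ND1, a complex I subunit, was at 2770, 1820, 3130 and 2880 CPM in the Telaglenastat tumors and 5210, 5800, 5770 and 4940 CPM in the Combination tumors (log2 fold change 1.04 ± 0.15 SE, adjusted p = 7.49e-05). Telaglenastat tumor 2 was the lowest library by a wide margin, and MT-ND6 (log2 1.11, adjusted p = 0.000171), MT-CO3 (log2 0.88, adjusted p = 0.000322) and MT-ND3 (log2 0.82, adjusted p = 0.000342) also had it lowest. All genes with symbols starting in MT-, a wider set than these 13, were also summed as a share of all counts. They took 6.23 to 9.07% in Telaglenastat, 13.2 to 14.8% in Combination, 6.78 to 7.22% in Control and 8.28 to 13.6% in Palbociclib tumors. This share is also a common sign of RNA or tissue quality, and its part in the other results was not tested.

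Nuclear genes of the respiratory chain moved less: 17 of 76 were higher (22.4%, against 8.93% of all genes) and 0 lower (median 0.16). With GC content and length removed 14 were higher and 5 lower. COX7C, a complex IV subunit, had 123, 123, 125 and 136 CPM in Telaglenastat and 157, 177, 156 and 171 CPM in Combination tumors (log2 fold change 0.38 ± 0.076 SE, adjusted p = 0.0014), with no overlap. Cytosolic ribosomal proteins were higher for 65 of 76 genes and lower for 0 (median 0.36; 51 higher and 0 lower with GC content and length removed), among them RPL29, RPL11 and RPL38 with log2 fold changes of 0.56, 0.50 and 0.52. These genes have many processed pseudogenes, which makes their counts uncertain. In the list of MYC and ribosome biogenesis genes 3 of 30 rose (10%) and 1 fell (3.33%), with a median of 0.06. Among all genes these shares were 8.93% and 9.89%. MYC was at 164, 122, 128 and 147 CPM in the Telaglenastat tumors and 224, 196, 170 and 170 CPM in the Combination tumors (log2 fold change 0.44 ± 0.10 SE, adjusted p = 0.00483). Its groups did not overlap, and ODC1, the polyamine enzyme often called a MYC target, moved the other way, from a range of 422 to 462 CPM to one of 263 to 331 CPM (log2 -0.56, adjusted p = 5.21e-05).

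**Figure D2:**
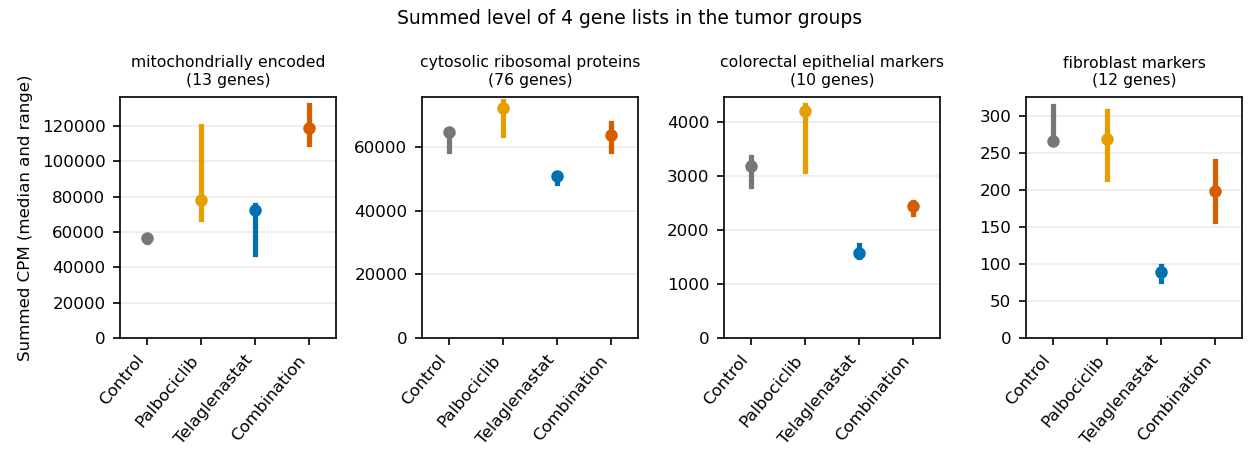
Summed CPM of 13 mitochondrially encoded genes, 76 cytosolic ribosomal protein genes, 10 colorectal epithelial markers and 12 fibroblast markers in the 4 tumor groups (3, 5, 4 and 4 libraries), as the median (point) and the range over libraries (bar), each axis starting at 0. Combination tumors lie above Telaglenastat tumors in all 4 panels, and Control tumors lie above Telaglenastat tumors in the last 3.

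Carbon metabolism changed in few genes. In the list of glycolysis and glucose uptake 3 of 30 genes rose, 10% against 8.93% of all genes, and none fell (median 0.01); all 3 were carriers. SLC2A1, the glucose transporter GLUT1, was at 374, 355, 377 and 328 CPM in the Telaglenastat tumors and 641, 652, 642 and 696 CPM in the Combination tumors, a rise without overlap (log2 fold change 0.88 ± 0.078 SE, adjusted p = 2.60e-07). SLC2A3, the transporter GLUT3, and SLC16A1, the monocarboxylate carrier MCT1, rose by log2 fold changes of 0.77 and 0.32. The TCA cycle list had 4 of 25 lower, 16% against 9.89% of all genes, and 0 higher (median -0.07), with MDH1, the cytosolic malate dehydrogenase, from a range of 241 to 259 CPM to one of 201 to 222 CPM (log2 -0.25, adjusted p = 0.00667). The pentose phosphate pathway had 1 lower and 1 higher of 11, 9.09% each and near the shares of all genes (median 0.04). Hypoxia and HIF1 targets had 5 of 30 higher and 1 lower (median 0.07). The carriers SLC2A1 and SLC2A3 are among them, with ANGPTL4 (log2 1.17, adjusted p = 0.0141) and P4HA2, a collagen prolyl hydroxylase (log2 0.53, adjusted p = 0.000384), beside which stand the shares of 8.93% higher and 9.89% lower among all genes.

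In the lipid synthesis lists the shares of lower members were above that of all genes tested, on 4 genes each. Of 25 cholesterol synthesis genes 4 were lower (16%, against 9.89% of all genes) and 1 higher (4%, against 8.93%), with a median of -0.09. HMGCS1, which makes the HMG-CoA of this pathway, fell from a range of 235 to 284 CPM to one of 181 to 230 CPM (log2 -0.37, adjusted p = 0.00199). MSMO1, a sterol demethylase, rose from 114, 111, 116 and 115 CPM to 148, 140, 126 and 140 CPM (log2 0.28, adjusted p = 0.0106). Fatty acid synthesis and desaturation had 4 of 18 lower (22.2%) and 1 higher (5.56%), with a median of -0.08. ACSL3, which activates fatty acids, had 265, 255, 283 and 256 CPM in Telaglenastat and 206, 177, 145 and 165 CPM in Combination tumors, a fall without overlap (log2 fold change -0.61 ± 0.082 SE, adjusted p = 2.88e-05). FADS1, a desaturase, fell (log2 -0.53, adjusted p = 0.00142).

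**Figure D3:**
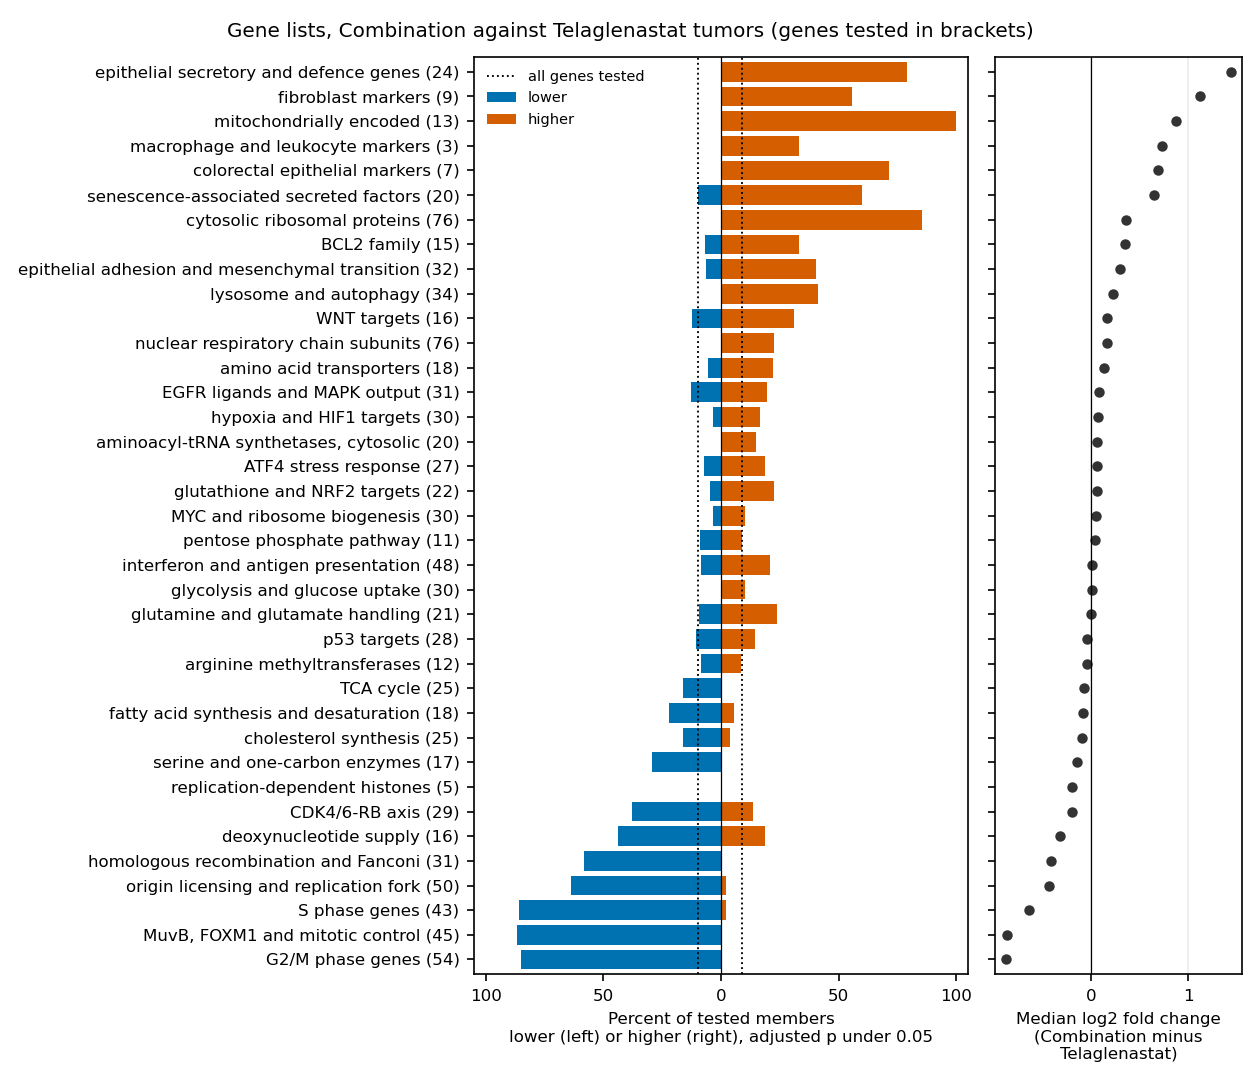
Gene lists of 3 or more tested genes, with their number in brackets. Left, the percent of tested members lower (blue) or higher (orange) in Combination tumors at an adjusted p under 0.05, with dotted lines at the shares among all genes tested (9.89% and 8.93%); right, the median log2 fold change. The G2/M, mitotic control and S phase lists lie at the low end, and the epithelial secretory, mitochondrially encoded and ribosomal protein lists have the highest shares of higher members.

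Genes of epithelial secretion and defence held many of the larger rises. Of 42 listed, 24 passed the filter and 19 of these were higher (79.2%, against 8.93% of all genes), with 0 lower. The filter keeps a gene that is expressed in 1 group only, so the median of 1.44 over those tested is not that of all 42. KRT6B (chr12:52446651-52452126), a keratin of stratified and wound epithelium outside that list, was at 13.7, 8.22, 13.7 and 6.99 CPM in the Telaglenastat tumors and 92.9, 126, 68 and 152 CPM in the Combination tumors (log2 fold change 3.37 ± 0.34 SE, adjusted p = 9.66e-07). KRT5 (chr12:52514575-52520687), a basal keratin, was at 21.9, 12.7, 19.3 and 11.2 CPM in the Telaglenastat tumors and 185, 86.6, 122 and 77.7 CPM in the Combination tumors (log2 fold change 2.86 ± 0.33 SE, adjusted p = 4.85e-06). Combination tumors were several times higher in both, without overlap.

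Kallikreins, secreted serine proteases of chr19, were among them. KLK10 (chr19:51012739-51020175) was at 8.97, 9.2, 9.87 and 7.29 CPM in the Telaglenastat tumors and 42.2, 36.4, 34.7 and 38.2 CPM in the Combination tumors. Its groups were narrow and far apart (log2 fold change 2.10 ± 0.13 SE, adjusted p = 3.36e-09). KLK6 had 32.6 to 44 CPM in Telaglenastat and 102 to 145 CPM in Combination tumors (log2 1.65, adjusted p = 1.08e-06). KLK7 had 20.2 to 32 CPM and 80.4 to 108 CPM (log2 1.78, adjusted p = 2.60e-07). KLK5 had few reads in Telaglenastat tumors, with 8, 3, 0 and 0 reads, and had 39, 70, 34 and 57 reads in Combination tumors (log2 4.15, adjusted p = 6.64e-05). At such counts the fitted fold change depends on the prior count.

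LCN2 was at 3.04, 7.66, 3.64 and 2.23 CPM in the Telaglenastat tumors and 37.6, 17.3, 24 and 17.1 CPM in the Combination tumors (log2 fold change 2.52 ± 0.31 SE, adjusted p = 1.34e-05). Combination tumor 1 was the highest and Telaglenastat tumor 2 the highest of its group, still below every Combination tumor. The protease inhibitor SLPI was at 1.22, 1.53, 1.97 and 0 CPM in the Telaglenastat tumors and 6.83, 9.26, 5.54 and 9.37 CPM in the Combination tumors (log2 2.70, adjusted p = 0.000256). The calcium-binding CALB1 was at 0.697 to 2.28 CPM and 4.18 to 14.6 CPM (log2 2.83, adjusted p = 0.000392). The mucin MUC16 was at 0.893 to 1.67 CPM and 1.94 to 14.8 CPM (log2 2.77, adjusted p = 0.000598), with Combination tumor 2 far below the other Combination tumors. S100A4, an abundant calcium-binding protein, rose from 636, 655, 609 and 594 CPM to 949, 1020, 1130 and 971 CPM (log2 0.71, adjusted p = 1.63e-06).

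**Figure D4:**
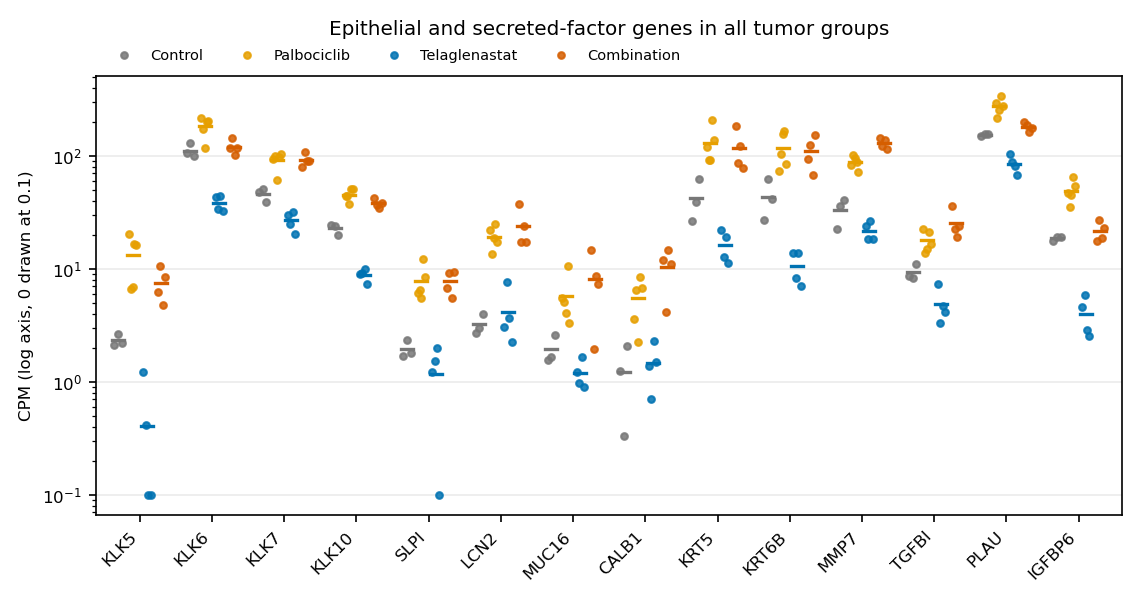
CPM on a log axis for 14 epithelial and secreted-factor genes in all 16 tumors, 1 point per tumor with a line at the group mean; a value of 0 is drawn at 0.1. In each gene the 4 Combination tumors lie above the 4 Telaglenastat tumors, and the Control and Palbociclib tumors are drawn beside them.

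Secreted factors associated with senescence, listed together with LMNB1, which is not secreted, rose in part. Of 20 tested (33 listed), 12 were higher (60%) and 2 lower (10%), LMNB1 among the latter, with a median of 0.65. Among all genes these shares were 8.93% and 9.89%. IL1A, IL1B, IL6, CXCL2, CCL2, MMP1 and MMP3 were among the members that did not pass the filter. As the filter keeps a gene expressed in 1 group only, the median is not that of all 33. PLAU, the protease urokinase, went from a range of 67.1 to 103 CPM to one of 162 to 201 CPM (log2 1.09, adjusted p = 4.05e-06). IGFBP6, which binds insulin-like growth factors, went from a range of 2.53 to 5.85 CPM to one of 17.8 to 26.9 CPM (log2 2.44, adjusted p = 6.31e-07). LMNB1, lamin B1, whose loss is a marker of senescence, fell from 223, 178, 194 and 218 CPM to 113, 92.7, 74.4 and 78.8 CPM (log2 -1.18, adjusted p = 1.19e-06). CXCL8, an interleukin often counted with these factors, did not pass the test (log2 fold change -0.12, adjusted p = 0.84), nor did GDF15 (0.40, adjusted p = 0.433); both were picked after their values were seen.

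In the list of epithelial adhesion and mesenchymal transition 13 of 32 genes were higher (40.6%) and 2 lower (6.25%), among them genes of both states. The median was 0.30, and among all genes these shares were 8.93% and 9.89%. TGFBI, a matrix protein induced by TGF-beta, was at 7.3, 3.34, 4.71 and 4.17 CPM in the Telaglenastat tumors and 36.2, 22.4, 19.3 and 24.1 CPM in the Combination tumors (log2 fold change 2.39 ± 0.24 SE, adjusted p = 1.18e-06). CLDN7, a tight junction protein, rose (log2 0.63, adjusted p = 2.76e-05). GJA1, the gap junction protein connexin 43, fell from 22.6, 10.7, 12.8 and 41.2 CPM to 3.65, 3.58, 5.96 and 6.55 CPM (log2 fold change -2.14 ± 0.39 SE, adjusted p = 0.000678). Telaglenastat tumor 4 was the highest for GJA1 and the groups did not overlap.

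EGFR ligands and MAPK output had 6 of 31 higher (19.4%) and 4 lower (12.9%), with a median of 0.08. Among all genes these shares were 8.93% and 9.89%. DUSP4, a MAPK phosphatase, was at 194, 167, 205 and 164 CPM in the Telaglenastat tumors and 330, 317, 311 and 317 CPM in the Combination tumors (log2 fold change 0.81 ± 0.073 SE, adjusted p = 2.71e-07), clear of overlap. HBEGF, an EGFR ligand, went from a range of 6.53 to 10.1 CPM to one of 12.6 to 20.1 CPM (log2 1.03, adjusted p = 0.00448). WNT targets had 5 of 16 higher (31.2%, against 8.93% of all genes) and 2 lower (12.5%, against 9.89%), with a median of 0.17. CCND1 and MYC are in both lists. DKK1, a secreted WNT inhibitor, was lower at 307 to 483 CPM against 517 to 597 CPM (log2 -0.59, adjusted p = 0.0017). SOX9, a transcription factor of the crypt, was higher (log2 0.43, adjusted p = 0.00397). In the BCL2 family 5 of 15 rose (33.3%, against 8.93% of all genes) and 1 fell (6.67%, against 9.89%), with a median of 0.36. The death-promoting BIK went from 31.5, 36.2, 37.4 and 29.3 CPM to 61.5, 73.2, 80.5 and 74.2 CPM (log2 1.11, adjusted p = 2.60e-07). The survival gene BCL2L1 went from a range of 103 to 122 CPM to one of 143 to 174 CPM (log2 0.52, adjusted p = 0.000584). PMAIP1, the p53 target NOXA, rose (log2 0.57, adjusted p = 0.00118) and BMF, also death-promoting, fell (log2 -1.42, adjusted p = 0.00448). Targets of p53, which HCT116 carries in wild type form, had 4 of 28 higher (14.3%) and 3 lower (10.7%), with a median of -0.04. These shares were not far from the 8.93% and 9.89% of all genes. Among the members called were RRM2B (log2 -0.39, adjusted p = 0.00167) and TIGAR (log2 0.72, adjusted p = 0.00592).

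Lysosome and autophagy genes were higher for 14 of 34 (41.2%, against 8.93% of all genes) and lower for 0 (median 0.23). NPC2, which binds cholesterol in the lysosome, was at 80.7, 72, 81.4 and 74.7 CPM in the Telaglenastat tumors and 178, 196, 184 and 176 CPM in the Combination tumors, more than doubled (log2 fold change 1.25 ± 0.11 SE, adjusted p = 2.71e-07). GRN, progranulin, and ATP6AP1, of the proton pump, rose by log2 fold changes of 0.91 and 0.47. Glutathione and NRF2 targets had 5 of 22 higher (22.7%, against 8.93% of all genes) and 1 lower (4.55%, against 9.89%), with a median of 0.07. FTH1, the ferritin heavy chain, went from 1240, 1140, 1390 and 1080 CPM to 2190, 2170, 2160 and 1930 CPM (log2 0.80, adjusted p = 1.26e-06). TXN, thioredoxin, rose (log2 0.39, adjusted p = 0.000831) and GSR, glutathione reductase, fell (log2 -0.33, adjusted p = 0.00745). Interferon and antigen presentation genes had 10 of 48 higher (20.8%, against 8.93% of all genes) and 4 lower (8.33%, against 9.89%), with a median of 0.02. HLA-E, which presents peptides at the cell surface, rose (log2 0.44, adjusted p = 0.000279). Arginine methyltransferases and their partners had 1 higher (AHCY, log2 0.34, adjusted p = 0.00745) and 1 lower (MAT2B, log2 -0.21, adjusted p = 0.0489) of 12, with a median of -0.04. That is 8.33% each, near the 8.93% and 9.89% of all genes. MAT2B lost its call in 15 of 17 alternatives and whichever of the 8 tumors was left out.

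Marker genes were read for the grafted line and for cells of the host. Of 10 colorectal epithelial markers 7 were tested and 5 were higher (median 0.69), and their summed level was 1510 to 1730 CPM in Telaglenastat and 2290 to 2520 CPM in Combination tumors. CDX1 and CEACAM6 had no read in the 8 tumors. KRT18 was at 414, 342, 319 and 366 CPM in the Telaglenastat tumors and 784, 728, 795 and 676 CPM in the Combination tumors (log2 fold change 1.05 ± 0.10 SE, adjusted p = 5.79e-07). EPCAM, an epithelial adhesion molecule, did not pass the test (log2 fold change 0.12, adjusted p = 0.208; picked after its value was seen). VIL1, villin, had 0, 0, 0 and 0 reads in Telaglenastat and 7, 30, 17 and 36 reads in Combination tumors, at least 7.52-fold higher against a floor of 3 counts per library (adjusted p = 0.0362), a call lost in 10 of 15 alternatives (adjusted p up to 0.0728), among them those without any 1 of the Telaglenastat tumors or of Combination tumors 2, 3 and 4.

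Of 12 fibroblast markers 9 were tested, with 5 higher, 0 lower and 4 not called (median 1.13, lowest -0.24). Their summed levels were 77.2 to 97.2 CPM in Telaglenastat, 158 to 239 CPM in Combination, 265 to 313 CPM in Control and 215 to 307 CPM in Palbociclib tumors. SPARC, a matrix protein, was at 22.8, 21.3, 21.6 and 17.9 CPM in the Telaglenastat tumors and 61.3, 73.8, 40.9 and 50 CPM in the Combination tumors (log2 fold change 1.43 ± 0.15 SE, adjusted p = 1.86e-06). COL1A1, a chain of type I collagen, was at 28.1, 26.8, 24.9 and 22.8 CPM in the Telaglenastat tumors and 69.6, 67.8, 54.1 and 55.9 CPM in the Combination tumors (log2 fold change 1.27 ± 0.18 SE, adjusted p = 4.16e-05). Both were without overlap, yet DCN and LUM, which define fibroblasts, had no read in the 8 tumors. Of 9 macrophage and leukocyte markers 3 were tested and LYZ was higher (log2 1.19, adjusted p = 0.0243; up to 0.0726 without Telaglenastat tumor 1 or 4 or Combination tumor 2 or 3), with summed levels of 3.04 to 10.3 CPM and 9.85 to 16.6 CPM and no read of CD14, AIF1 or TYROBP. Of 6 endothelial markers none passed the filter, with summed levels of 1.06 to 2.37 CPM and 0.595 to 2.27 CPM, and CDH5 had no read. The genome the reads were aligned to is human, and how far mouse reads align to it, and their part in these results, was not tested.

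The largest falls and rises by the rule for named genes include genes annotated across a neighbouring pair, for which counting can assign reads to either. NME1-NME2 had 15, 27, 15 and 26 reads in Telaglenastat and 0, 0, 0 and 0 in Combination tumors, at least 6.78-fold lower against a floor of 3 counts per library, beside a mean of 103 CPM in Control tumors. ISY1-RAB43 had 0, 1, 0 and 0 and 28, 24, 38 and 39 reads, and between 16.4 and 21.8 CPM in Control tumors. With NEDD8-MDP1 (log2 fold change -2.29, adjusted p = 0.0172, and 0.0598 without Telaglenastat tumor 3) and AP003419.11 (log2 fold change 2.83) they are uncertain. Among the single genes, PEG10, an imprinted retrotransposon-derived gene, was at 60.2, 78.6, 50.9 and 84.1 CPM in the Telaglenastat tumors and 20.6, 16.1, 17 and 17.6 CPM in the Combination tumors, a fall without overlap (log2 fold change -1.94 ± 0.17 SE, adjusted p = 1.86e-07). ANXA10, an annexin, went from 10.9, 10.9, 10.9 and 17.9 CPM to 3.02, 1.79, 3.12 and 4.17 CPM (log2 -2.06, adjusted p = 0.000159). RGS9, a regulator of G protein signalling, went from a range of 6.7 to 8.92 CPM to one of 1.49 to 3.18 CPM (log2 -1.73, adjusted p = 8.51e-05), and MOXD1, a monooxygenase-like protein, from a range of 5.06 to 7.6 CPM to one of 1.49 to 2.53 CPM (log2 -1.69, adjusted p = 0.00078).

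Palbociclib without Telaglenastat was compared in the other tumors. In 5 Palbociclib against 3 Control tumors 535 genes (3.6%) were lower and 379 (2.55%) higher, 6.16% in all. Of the genes lower with Telaglenastat present, 431 were lower here too, 29.4% of the 1468 and 80.6% of the 535, and 278 genes were higher in both, 21.0% of the 1326 and 73.4% of the 379. The comparisons share no library but share 1 estimate of the spread. By sign alone 90.4% of the lower and 91.6% of the higher genes moved the same way. Their median log2 fold change without Telaglenastat was -0.22 for the lower and 0.23 for the higher genes, against -0.43 and 0.50 with it. Across all 14848 genes, which are not independent replicates, Pearson's r of the effects was 0.258. S phase and G2/M genes fell (33 and 48 lower, medians -0.58 and -0.77), CCND1 rose (log2 fold change 0.95, adjusted p = 1.64e-06) and CCNE2 and MKI67 fell (-1.51 and -1.05). CDK6 was at 0.69 and did not pass (adjusted p = 0.0591). With 3 Control tumors the counts turned on each of them: leaving out the first gave 191 higher genes, the second 305 lower and 189 higher genes, and the third 353 lower and 218 higher genes.

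The difference between the effects was tested itself, as the change of Palbociclib with Telaglenastat minus that without, and 10 genes (0.0673%) passed, 7 positive (0.0471%) and 3 negative (0.0202%). MMP7, NR2F1, PALLD and HTR7 are named because they passed. SPARC had 78.7, 84.1 and 73.5 CPM in Control and 83.6, 80.3, 60.2, 81.8 and 80.9 CPM in Palbociclib tumors, no rise there, and the difference was 1.46 ± 0.20 SE (adjusted p = 0.00412). COL1A2 and COL1A1 did not rise there either (log2 fold changes -0.15 and -0.02; differences 1.45 and 1.29, adjusted p = 0.0097 and 0.0479). In these 3 genes Telaglenastat tumors were the lowest of the 4 groups, at 22.8 to 28.1 CPM for COL1A1. Combination tumors lay between Telaglenastat and Control tumors or reached the latter. The trend on GC content also differed between these groups. With GC content and length removed, 2 genes were negative and 7 positive for the difference, and SPARC still passed. The part of the trend in the levels of the 4 groups was not tested.

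MMP7, matrilysin, a metalloprotease of epithelium, rose in both settings. It was at 22.6, 35.7 and 40.4 CPM in Control and 82.6, 102, 95, 88 and 72.5 CPM in Palbociclib tumors. With Telaglenastat it was at 23.9, 18.5, 26.3 and 18.2 CPM in the Telaglenastat tumors and 145, 121, 138 and 116 CPM in the Combination tumors. These are log2 fold changes of 1.43 and 2.58 (difference 1.16, adjusted p = 0.0483). KLK10 had 24.4, 23.9 and 20.1 CPM in Control and 43.7, 43.9, 37.8, 50.7 and 50.9 CPM in Palbociclib tumors (log2 0.99 against 2.10, adjusted p of the difference 0.0097). MSMO1 fell with Palbociclib alone (-0.38) and rose with Telaglenastat present (0.28; adjusted p of the difference 0.0097). In the cholesterol list as a whole 15 of 25 genes fell with Palbociclib alone (median -0.48), against 4 here (median -0.09), and MSMO1 is the member for which the difference passed.

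HTR7, a serotonin receptor, fell in both settings and by more with Telaglenastat present (log2 -0.30 and -0.96; difference -0.66, adjusted p = 0.0483). NR2F1, a nuclear receptor, fell with Telaglenastat present (-0.81) and did not pass without (-0.19; difference -0.62, adjusted p = 0.0333). PALLD, an actin-associated protein, fell from a range of 597 to 846 CPM to one of 447 to 552 CPM and did not pass without Telaglenastat (log2 0.34; difference -0.80, adjusted p = 0.0483). ISY1-RAB43 is the remaining gene. As each of the 16 tumors was left out the count ran from 0 to 11 negative and 2 to 8 positive genes, lowest without Control tumor 2, and DESeq2 called 63 negative and 30 positive. Over the alternatives with a value, SPARC passed in 24 of 24, ISY1-RAB43 in 22 of 22, COL1A2 in 22 of 23, MSMO1 in 23 of 24, KLK10 in 22 of 24 and NR2F1 in 13 of 24, whereas COL1A1, PALLD and MMP7 passed in 10 and HTR7 in 9 of 24.

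**Figure D5:**
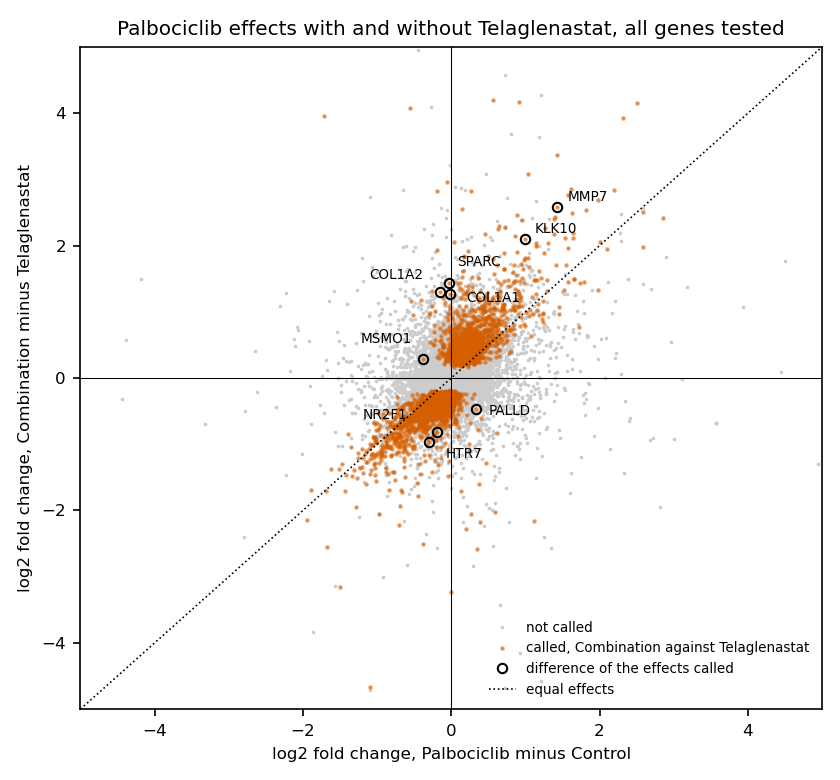
Log2 fold change of Combination minus Telaglenastat tumors (vertical) against that of Palbociclib minus Control tumors (horizontal) for all genes tested, with calls of the first in orange, the genes whose difference passed the test circled, and a dotted line at equal effects; 39 genes, ISY1-RAB43 among them, lie beyond the axes at 5. MMP7 and KLK10 are high on both axes, and SPARC, COL1A1 and COL1A2 are high on the vertical axis only.

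Cultures grown without drug from cells of Combination and Telaglenastat tumors, 3 each, were compared in the same way. Here 0 of 13985 genes (0%) passed edgeR's test, with 1969 at an unadjusted p under 0.05. DESeq2 called 112 lower and 29 higher, and without Telaglenastat culture 1 edgeR called 591 lower and 325 higher. Median log2 fold changes in cultures were 0.12 for S phase and 0.11 for G2/M genes, -0.23 for the epithelial secretory and defence genes and -0.46 for ribosomal proteins. For CCND1 the value was 0.14 and for MKI67 0.53 on the log2 scale. Whether tumors and cultures differ was not tested.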

How the data were processed

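Poly(A) RNA of 16 xenograft tumors and 12 cultures was sequenced as 60-base reads. Per the methods and the submitters' processing notes, the authors called bases with CASAVA 1.8, aligned reads with STAR to hg38 and deposited raw counts of reads per gene; the annotation release and the strand setting of the counting are not given in the sources used here. The 58278 counted genes (22232 without a read) were matched to GENCODE 29 by identifier (57940 matched, 55109 with the same version; 0.0287% of counts were on the rest) for names, GC content and length. Of the genes tested, 13 are listed again under a Y pseudoautosomal identifier. The 28 libraries were grouped by their labelled treatment, and the 8 tumors compared held 6463239 to 7218778 reads on genes, so a gene at 1 CPM rests on a handful of reads.

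The counts were filtered with filterByExpr (minimum count 10), scaled by TMM and fitted over all 16 tumors as 4 group means with the quasi-likelihood test of edgeR 4.0.16 in R 4.3.3, at a Benjamini-Hochberg adjusted p under 0.05. SE is the log2 fold change divided by the square root of F. The contrasts were Combination minus Telaglenastat, Palbociclib minus Control, their difference, and Combination minus Telaglenastat in a separate fit of the 12 cultures; the tests were tried on simulated counts. Alternatives were DESeq2 1.42.0, its size factors in edgeR, no filter, at least 10 counts in every library, only the groups compared, protein-coding genes, removal of GC content and length by splines (df 5), a replicate block, and leaving out each library. Every pair of replicates differed by more than counting noise.

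The genes named are 12 drug targets and readouts fixed by name, the 8 largest rises and 8 largest falls among protein-coding genes that passed the test, averaged 1 log2 CPM or more and had groups that do not overlap, and up to 4 members of each of 38 gene lists with the smallest adjusted p, some left out; others are said to be named after their values were seen. The members and the lists were chosen with earlier results of these data known. A "called" gene is one past the threshold. Promoter sequences are those of RefSeq on GRCh38.p14. Results for some genes are not reported here.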

Additional observations from a re-analysis of the deposited data

Results flagged for a closer look

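In 332 pairs of a named gene and a group of 4 tumors, 18 had 1 tumor far from the other 3 by Dixon's test, and chance alone gives about 1 in 20. In the Telaglenastat group, tumor 2 was low for MT-ND6 (806 CPM) and MT-CO3 (6610 CPM) and held the 1 read of ISY1-RAB43 (0.139 CPM). Tumor 4 was high for ANXA10 (17.9 CPM), COX7C (136 CPM) and CCNE1 (25 CPM) and low for E2F7 (33.3 CPM) and SLC1A1 (26.8 CPM). Tumor 3 stood apart for SLC38A5 (15.2 CPM), STARD4 (137 CPM), AHCY (133 CPM) and CDKN1B (68.5 CPM), and tumor 1 for BCL2L1 (122 CPM). In the Combination group, tumor 1 stood apart for NEDD8-MDP1 (0.0 CPM) and MTHFD1 (158 CPM), tumor 3 for FH (46.9 CPM) and HLA-E (227 CPM), and tumor 4 for FTH1 (1930 CPM).

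For 10 genes the effect of Palbociclib differed with and without Telaglenastat by edgeR's test of the difference itself. The differences, on the log2 scale, were 6.31 for ISY1-RAB43, 1.46 for SPARC, 1.45 for COL1A2, 1.29 for COL1A1, 1.16 for MMP7, 1.11 for KLK10, 0.66 for MSMO1, -0.62 for NR2F1, -0.66 for HTR7 and -0.80 for PALLD.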

How the results depend on the processing

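The comparison of Combination with Telaglenastat tumors gave 1080 to 1409 lower and 997 to 1379 higher genes as each of its 8 libraries was left out, and 995 to 1606 lower and 1156 to 1584 higher genes under the other alternatives, against 1468 and 1326. The share of calls that were higher was 47.5%, and 54.0% with GC content and length removed. Replicate numbers were not taken as pairs: same-numbered Telaglenastat and Combination tumors correlated by -0.0226 to 0.0896 in their deviations from the group means and other pairs by -0.0798 to 0.0672, and with a replicate block 1395 genes were lower and 1223 higher in this comparison, 367 and 284 in Palbociclib against Control tumors, and 1 negative for the difference of effects.

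Of Palbociclib against Control tumors, genes higher numbered 601 with DESeq2 and 614 without the filter, against 379; leaving out a library gave 305 to 627 lower and 189 to 490 higher. Of the difference of effects, negative genes numbered 63 with DESeq2, 139 without the filter, 15 with at least 10 counts in every library and 6 among protein-coding genes alone, against 3, and positive genes 30, 96 and 14 under the first 3 of these, against 7; leaving out a library gave 0 to 11 and 2 to 8. In cultures DESeq2 gave 112 lower and 29 higher and no filter 698 and 54, against 0 and 0, with 0 to 591 lower and 0 to 325 higher as a library was left out, most without Telaglenastat culture 1. The cause of these changes was not tested. With GC content and length removed, the sign turned for CDK4, which was not called (log2 0.07 to -0.042, adjusted p = 0.762; -0.043 with the replicate block too), and for the medians of 5 lists near 0: ATF4 (0.07 to -0.02), glycolysis (0.01 to -0.03), pentose phosphate (0.04 to -0.06), EGFR and MAPK (0.08 to -0.03) and interferon (0.02 to -0.09). The medians of glutamine genes (0.01), interferon genes, arginine methyltransferases (-0.04) and histones (-0.19) also turned under other alternatives. No called gene named here turned. For single genes, 1407 values under alternatives other than leaving out a library kept their direction and side of the threshold, 55 lost it and 13 gained it. As a library was left out, these numbers were 1239, 83 and 6. At these depths, genes under about 10 reads a library were mostly not tested, and a value of 0 allows up to 3 reads.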
